A study of Homo sapiens with 6 samples.

Results

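The genes described here are 47 listed members of the NRF2, glutathione and antioxidant enzyme group of human cells, with metallothioneins left out. Members were chosen by name, with earlier results of these data known. Of the 47, 44 were named by at least 1 probe set that carried their symbol alone, out of 19775 genes named in this way on the array. AKR1B1, FTH1 and PRDX5 had no such probe set and were not analysed here. A probe set is the group of oligonucleotide probes that reads 1 transcript, and each gene was read from its brightest probe set over all arrays. Of the 44 members, 38 were bright enough to be tested, and 6 (AKR1B10, AKR1C2, GPX2, ABCC2, ABCC3 and OSGIN1) were too dim.

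The measurements come from OVCA432, an established human cell line derived from high grade serous ovarian cancer. Both groups were grown in RPMI1640 with fetal bovine serum, seeded in 6-well plates and deprived of serum for 24 h. The MFAP5 group then received 200 ng/mL recombinant human MFAP5, a secreted glycoprotein of the microfibrils of the extracellular matrix, in serum-free medium, and the control group received only the solvent. RNA was collected after 48 h and read on Affymetrix Human Genome U133 Plus 2.0 arrays, 3 per group. Everything was measured in 1 cell line, at 1 dose and 1 time. The labels call the samples independent but do not say whether they came from separate cultures, so p-values measure the spread among these 3 and 3 samples. In bulk RNA, fewer cells of a kind and less RNA per cell cannot be told apart.

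NRF2, the product of NFE2L2, is a transcription factor that is made continuously and normally degraded, because KEAP1 holds it and hands it to a CUL3 ubiquitin ligase. Oxidants and electrophiles modify cysteines of KEAP1, NRF2 then accumulates, pairs with a small MAF protein and binds antioxidant response elements near its target genes. Many targets make or recycle glutathione and thioredoxin, supply NADPH, break down heme, store iron, reduce quinones and export glutathione conjugates. The pathway has been studied in ovarian cancer for its link to platinum resistance. Since NRF2 is controlled mostly through the stability of its protein, its messenger RNA does not report its activity.

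The sequence most closely tied to this pathway is the core of the antioxidant response element, TGACNNNGC. RefSeq promoter windows (GRCh38.p14, 250 bases before to 50 bases after each annotated start) were searched for it on both strands. They were found for 33 of the 44 members, in 47 windows, and 9 of these members held at least 1 match: TXNRD1, PGD, MGST1, GCLM, KEAP1, GSTP1, GSTO1, ME1 and GPX2. Among all genes with a window, 16.1% held a match, and among all windows 13.3% did. No window was matched for GSS, GSR, TXN2, HMOX1, AKR1B10, PRDX1, PRDX6, SOD1, MGST2, ABCC1 and ABCC3. The matches below were chosen because they include the member with the largest decrease (TXNRD1), another member that fell (PGD), the NRF2 inhibitor (KEAP1), and 3 further members that were not called. In each stretch, capitals mark 1 match to the core or its reverse complement, with up to 30 neighbouring bases on each side. The KEAP1 stretch also holds another match, TGACACGGC, which is left in small letters. Each sequence reads 5′ to 3′ on the gene's own strand.

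TXNRD1, first start, chr12:104215650-104215718, plus strand: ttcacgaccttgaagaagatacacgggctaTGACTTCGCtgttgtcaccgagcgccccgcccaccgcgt
TXNRD1, later start, chr12:104286900-104286968, plus strand: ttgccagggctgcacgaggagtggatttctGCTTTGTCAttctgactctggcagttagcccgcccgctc
PGD, chr1:10398833-10398901, plus strand: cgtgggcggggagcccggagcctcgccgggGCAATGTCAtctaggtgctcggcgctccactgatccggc
KEAP1, chr19:10502772-10502832, minus strand: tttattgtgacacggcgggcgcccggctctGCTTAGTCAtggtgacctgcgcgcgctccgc
GCLM, chr1:93909431-93909494, minus strand: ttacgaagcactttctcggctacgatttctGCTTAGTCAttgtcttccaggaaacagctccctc
GSTP1, chr11:67583716-67583784, plus strand: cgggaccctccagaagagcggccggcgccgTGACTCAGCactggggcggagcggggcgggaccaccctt
ME1, chr6:83431150-83431218, minus strand: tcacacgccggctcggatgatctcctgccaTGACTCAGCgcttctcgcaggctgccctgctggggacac

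Of the members with a window, 3 of the 11 that fell, 0 of the 2 that rose and 5 of the 16 that were not called held the core. The GSTP1 and ME1 matches shown contain TGACTCA, so they overlap the AP-1 motif TGANTCA, and OSGIN1 held the AP-1 motif without the antioxidant core. These were the only 3 of the 33 members with a window that held the AP-1 motif. Among all genes with a window 9.37% held it, and among all windows 7.71% did. A match is a run of letters and not evidence that a factor binds there.

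MFAP5 was followed by more decreases than increases among these genes. TXNRD1 fell most and GSR, MGST2, TXN, FTL and SOD1 fell less, while HMOX1, ABCC1, GPX3 and NFE2L2 itself rose. Of the 38 members tested, 14 (36.8%) fell and 4 (10.5%) rose at an adjusted p below 0.05 in limma, and 20 were not called. Over all 12216 genes tested, 15.3% were called lower and 14.6% higher. The median difference, MFAP5 minus control in log2 signal, was -0.175 over the 38 members and -0.01 over all genes. Signals of the 2 groups did not overlap for 27 members, and for 45.9% of all genes. Brighter genes were called more often. With the filter at the 75% quantile of brightness, 16 of 35 members (45.7%) were called lower and 4 higher. Among all 7995 genes past that filter, 22.6% were lower and 17.2% higher. The median differences were then -0.175 for the members and -0.0408 for all genes.

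The number of members called lower depended on the arrays and the scaling. It was 8 without MFAP5 replicate 2, where 10.1% of all genes were called lower. Without any other single array it was between 10 and 18, among 10.4% to 15% lower of all genes. The deposited signals had been scaled to a common trimmed mean. Centring each array on its median instead moved the median of all genes to -0.147 and gave 23 members lower and 3 higher, among 28.1% lower and 9.15% higher of all genes. Centring on the hybridisation controls gave 8 lower and 3 higher, among 8.94% and 7.49% of all genes. Under each of the 16 alternative settings more members were called lower than higher, and no called member changed sign.

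**Figure D1:**
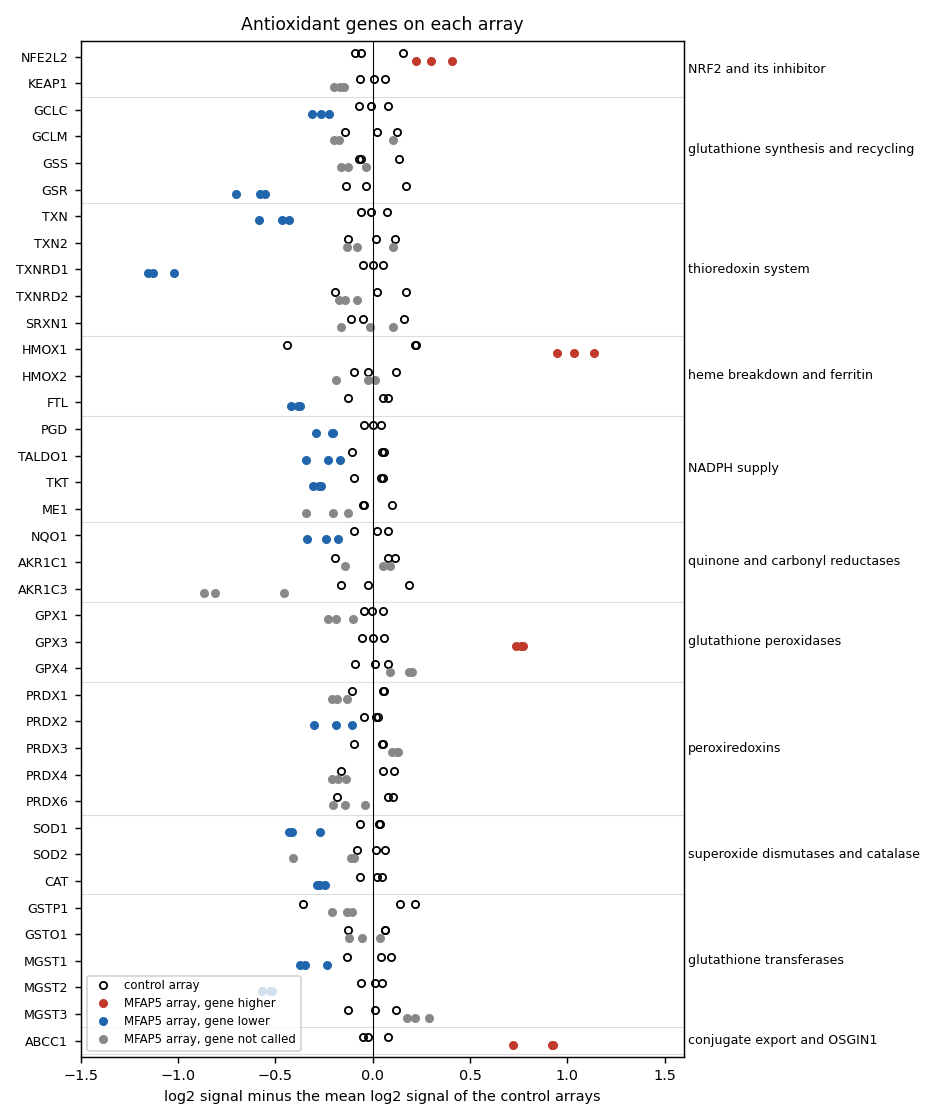
Log2 signal of the 38 tested members on each of the 6 arrays, minus the mean of the 3 control arrays, grouped by role. The MFAP5 points of TXNRD1 lie farthest below the control points, at a mean difference of -1.10, and those of HMOX1 farthest above, at 1.04.

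NFE2L2 itself rose. Its signals were 3209.8, 3142 and 3729.9 on the control arrays and 3911, 4447 and 4117 on the MFAP5 arrays. All MFAP5 signals lay above all control signals, though the highest control array was close to the lowest MFAP5 array. The mean went from 3361 ± 322 to 4158 ± 271 (SD, n = 3 each), a log2 difference of 0.31 (SE 0.08, adjusted p = 0.0211). This call was lost in 7 of 16 alternative settings, among them without control replicate 1 (adjusted p = 0.076), control replicate 2 (0.0809), MFAP5 replicate 2 (0.097) and MFAP5 replicate 3 (0.0516). With arrays centred on their medians the difference was 0.17 (adjusted p = 0.181), and with the hybridisation controls 0.25 (adjusted p = 0.27). The other tested probe set of NFE2L2 gave 0.36 and was not called.

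KEAP1, which presents NRF2 for degradation, read 3038, 2925 and 2779.6 in control and 2629, 2538 and 2589 with MFAP5. Each MFAP5 signal was below each control signal, and the 45.5 SD of the MFAP5 arrays was smaller than the 129 SD of the control arrays. The log2 difference was -0.17 (95% interval -0.32 to -0.03), and it did not pass the test (adjusted p = 0.08).

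Glutathione synthesis and recycling held 4 members, of which 2 fell and 0 rose, beside 15.3% lower and 14.6% higher of all genes. GSR, the NADPH-dependent reductase that returns oxidised glutathione to its reduced form, read 1096, 950.1 and 886 in control and 597, 652 and 664 with MFAP5. It was 1.53-fold lower, from 977 ± 108 to 638 ± 35.4 (log2 difference -0.61, SE 0.10, adjusted p = 0.00199), with no overlap. GCLC, the catalytic subunit of the rate-limiting glutamate-cysteine ligase, read 1635, 1567 and 1736 in control and 1322, 1409 and 1368 with MFAP5. It was 1.20-fold lower (log2 difference -0.27, SE 0.07, adjusted p = 0.025). The GCLC call was lost in 8 of 16 settings, including without control replicates 1 and 3 (adjusted p = 0.0652 and 0.0633) and without MFAP5 replicates 1, 2 and 3 (0.0628, 0.0595 and 0.0623).

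GCLM, the modifier subunit of the same ligase, overlapped between groups. Its control signals were 2239.9, 2510.3 and 2699.9 and its MFAP5 signals 2159, 2198 and 2662. The log2 difference was -0.09, with an interval from -0.31 to 0.13 (adjusted p = 0.557). GSS, which adds glycine to complete glutathione, gave -0.11 with an interval from -0.28 to 0.06 (adjusted p = 0.335).

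The thioredoxin system held the largest decrease of the whole group. TXNRD1, the cytosolic selenoenzyme that reduces thioredoxin with NADPH, read 8219, 7924 and 7640.0 in control and 3909, 3617 and 3556 with MFAP5. The lowest control signal was far above the highest MFAP5 signal. The mean fell from 7928 ± 289.5 to 3694 ± 188, which is 2.15-fold lower (log2 difference -1.10, SE 0.06, adjusted p = 2.63e-06), and it ranged from -1.24 to -1.08 over the 16 settings. TXN, cytosolic thioredoxin itself, read 12854, 12391 and 13590.2 in control and 8611, 9593 and 9348 with MFAP5. It was 1.41-fold lower, from 12945 ± 605 to 9184 ± 511 (log2 difference -0.50, SE 0.07, adjusted p = 0.000499). The other tested TXN probe set, whose suffix _at marks probes designed to match 1 gene alone, gave -0.43 and was not called (adjusted p = 0.0936).

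The mitochondrial members of the system did not pass the test. TXN2, mitochondrial thioredoxin, gave -0.04 (interval -0.22 to 0.15), and TXNRD2, its reductase, gave -0.13 (interval -0.36 to 0.09). SRXN1, sulfiredoxin, which repairs over-oxidised peroxiredoxins, overlapped fully: 2151, 2595 and 2243 in control against 2302, 2491 and 2072 with MFAP5, a difference of -0.03 (interval -0.23 to 0.18).

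**Figure D2:**
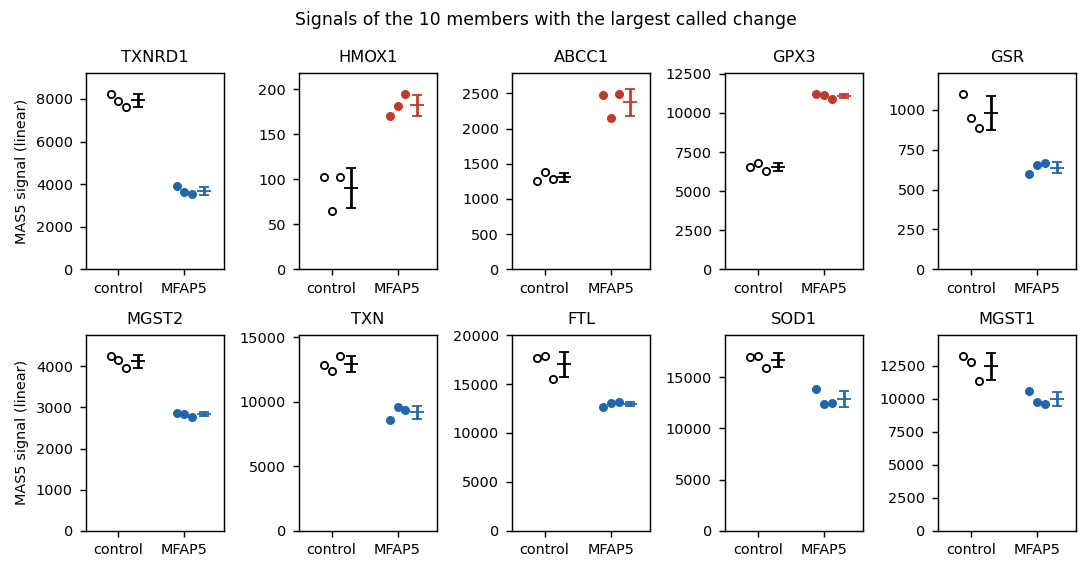
Signal per array on a linear scale for the 10 called members with the largest log2 difference, with the group mean and SD (n = 3 each). In every panel the control and MFAP5 points are separate, and the GPX3 means are 6560 ± 254 and 11075 ± 143.

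Of the 3 members tested for heme breakdown and ferritin, 1 rose and 1 fell, beside 14.6% higher and 15.3% lower of all genes. HMOX1, heme oxygenase 1, the inducible enzyme that opens the heme ring, read 103, 65.1 and 103 in control and 170.3, 181 and 194 with MFAP5. It was dim but above the brightest Bacillus control probe set on all 6 arrays. It was 2.06-fold higher, from 90.4 ± 21.9 to 182 ± 12 (log2 difference 1.04, SE 0.22, adjusted p = 0.00756). FTL, the ferritin light chain of the iron storage shell, read 17630.5, 17915 and 15541 in control and 12687, 13024 and 13129 with MFAP5. It was 1.31-fold lower (log2 difference -0.39, SE 0.07, adjusted p = 0.00224), its other probe set was also called lower, and all MFAP5 signals lay below all control signals. HMOX2, the constitutive heme oxygenase, gave -0.07 (interval -0.27 to 0.14) and was not called.

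NADPH supply held 4 members, of which 3 fell, beside 15.3% of all genes, and none of the 4 overlapped between groups, as was so for 45.9% of all genes. TKT, transketolase of the pentose phosphate pathway, read 23639, 23779 and 21419.8 in control and 18892, 19089 and 18496 with MFAP5. It was 1.22-fold lower (log2 difference -0.28, SE 0.06, adjusted p = 0.00787), and its other 2 tested probe sets were called lower too, at -0.36 and -1.41. TALDO1, transaldolase of the same pathway, read 10018, 10102 and 9002 in control and 8639, 8260 and 7635 with MFAP5. These signals were also separate, and TALDO1 was 1.19-fold lower (adjusted p = 0.0293). PGD, the 6-phosphogluconate dehydrogenase that makes NADPH directly, was 1.18-fold lower (adjusted p = 0.019). ME1, cytosolic malic enzyme, gave -0.22 (interval -0.43 to -0.01) and was not called (adjusted p = 0.114).

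The calls of the small decreases in this role, but not their direction, depended on which arrays were included. Over the alternative settings the log2 difference ran from -0.386 to -0.199 for TALDO1 and from -0.373 to -0.205 for PGD. In the fits without 1 array that follow, 10.1% to 11.4% of all genes were called lower, beside 15.3% with all arrays. TALDO1 lost its call without control replicate 1 (adjusted p = 0.0994), control replicate 2 (0.102), MFAP5 replicate 2 (0.0848) and MFAP5 replicate 3 (0.112). PGD lost it without control replicate 2 (adjusted p = 0.0745), MFAP5 replicate 2 (0.0562) and MFAP5 replicate 3 (0.0748). TKT lost it only when the fit had no intensity trend (adjusted p = 0.0586).

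Of the quinone and carbonyl reductases, 3 of the 5 measured were tested and 1 fell, beside 15.3% of all genes. NQO1, which reduces quinones with 2 electrons at a time and is often used as a readout of NRF2, read 6797, 7075 and 6272 in control and 5921, 5302 and 5674 with MFAP5. The groups were separate, and the mean was 1.19-fold lower, from 6715 ± 408 to 5632 ± 312 (log2 difference -0.25, SE 0.07, adjusted p = 0.0243). Its other 2 tested probe sets gave larger decreases, -0.94 and -0.74, both called. The call on the brightest probe set was lost without control replicate 1 (adjusted p = 0.0758), control replicate 2 (0.0935), MFAP5 replicate 2 (0.115) and MFAP5 replicate 3 (0.0598).

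The aldo-keto reductases among the members were dim, and probes for the closely related AKR1C genes may read more than 1 of them. AKR1C3 read 91.9, 117 and 101 in control and 56.5, 58.9 and 75.1 with MFAP5. These did not overlap, and the log2 difference of -0.71 (interval -1.24 to -0.19) narrowly missed the threshold (adjusted p = 0.051). It was called lower in 5 of the alternative settings. AKR1C1 gave a difference of 0.00, with a wide interval from -0.48 to 0.48. AKR1C2, between 8.25 and 61.0, and AKR1B10, between 2.88 and 29.4, were not tested.

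Among the glutathione peroxidases, GPX3 rose. GPX3, the secreted selenoenzyme of plasma and extracellular fluid, read 6559, 6814 and 6307 in control and 11188, 11122 and 10914 with MFAP5. All MFAP5 arrays were well above all control arrays. The increase was 1.69-fold (log2 difference 0.76, SE 0.06, adjusted p = 1.46e-05), and the other GPX3 probe set rose as well, by 0.86. GPX1, the abundant cytosolic enzyme, was lower without overlap but not called (-0.17, interval -0.32 to -0.03, adjusted p = 0.0695). GPX4, which reduces lipid peroxides in membranes, was higher without overlap but not called (0.16, interval 0.01 to 0.31, adjusted p = 0.113). GPX2, the epithelial and gut form, lay between 19.9 and 30.4 and was above the Bacillus controls on 0 arrays.

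The peroxiredoxins, thiol enzymes that remove hydrogen peroxide, showed small differences. Of the 5 measured only PRDX2 was called, and it fell, as did 15.3% of all genes. PRDX2 was 1.15-fold lower (log2 difference -0.20, SE 0.07, adjusted p = 0.0492). Its other 2 tested probe sets gave -0.19 and 0.19 and were not called, and it lost the call in 9 of 16 settings. These include each of the 3 fits without a control replicate (adjusted p = 0.138, 0.0806 and 0.0625) and those without MFAP5 replicates 1 and 2 (0.0884 and 0.211). PRDX1 (-0.17), PRDX4 (-0.18) and PRDX6 (-0.13) were not called, while mitochondrial PRDX3 gave 0.12 (interval -0.02 to 0.25).

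Control replicate 3 was low for several bright members. Without it, PRDX1 (-0.23, adjusted p = 0.00585), PRDX4 (-0.26, adjusted p = 0.00646) and PRDX6 (-0.22, adjusted p = 0.0211) were called lower. KEAP1 (adjusted p = 0.0471), GPX1 (0.0455) and GSTP1 (0.00186) were also called lower without it. GSTP1, the major cytosolic glutathione transferase of many tumours, read 18809, 19781 and 13319.7 in control and 15843, 15534 and 14745 with MFAP5. With all arrays its difference was -0.15 (interval -0.43 to 0.13), and without control replicate 3 it was -0.33.

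Both SOD1 and CAT fell. SOD1, the cytosolic copper and zinc superoxide dismutase, read 17003, 17112 and 15892 in control and 13811, 12365 and 12513 with MFAP5. It was 1.29-fold lower, from 16669 ± 675 to 12896 ± 795 (log2 difference -0.37, SE 0.07, adjusted p = 0.00256). CAT, the peroxisomal catalase, read 5959, 6457 and 6334 in control and 5169, 5116 and 5263 with MFAP5, without overlap. It was 1.21-fold lower (log2 difference -0.27, SE 0.06, adjusted p = 0.00878), but not called when arrays were centred on the hybridisation controls (adjusted p = 0.0988) or when the fit had no intensity trend (adjusted p = 0.0575). SOD2, the mitochondrial manganese enzyme, gave -0.20 (interval -0.42 to 0.01) without overlap and was not called.

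Among the glutathione transferases, the microsomal members MGST1 and MGST2 fell. MGST2, a membrane enzyme that can also make leukotriene C4, read 4261, 4148 and 3949 in control and 2872, 2851 and 2777 with MFAP5. The groups were far apart, with the mean 1.45-fold lower (log2 difference -0.54, SE 0.06, adjusted p = 0.000212). MGST1, a membrane-bound transferase and peroxidase, read 13256, 12784 and 11314 in control and 10563, 9761 and 9593 with MFAP5. It was 1.25-fold lower (log2 difference -0.32, SE 0.07, adjusted p = 0.0108), and all 3 of its other tested probe sets were called lower. Without MFAP5 replicate 2 the adjusted p of MGST1 was 0.0523, and with no intensity trend it was 0.0664.

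MGST3, the remaining microsomal member, ran the other way: 3102, 3340.0 and 2820.2 in control against 3758, 3581 and 3476 with MFAP5. Its signals did not overlap, but the difference of 0.23 (interval 0.06 to 0.40) was not called (adjusted p = 0.0531), and it was called higher in 5 alternative settings. GSTO1, an omega-class transferase with thiol transferase activity, gave -0.05 and overlapped.

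Conjugate export was represented by 1 tested member. ABCC1, which pumps glutathione conjugates out of the cell (multidrug resistance protein MRP1), read 1262, 1379 and 1284 in control and 2477, 2155 and 2487 with MFAP5. All MFAP5 signals exceeded all control signals, and the mean was 1.81-fold higher, from 1308 ± 62.5 to 2373 ± 189 (log2 difference 0.86, SE 0.08, adjusted p = 6.08e-05). Its other tested probe set rose by 0.58. The related exporters ABCC2 (4.17 to 16.9) and ABCC3 (12.4 to 65.5), and the NRF2 target OSGIN1 (4.11 to 61.3), were not tested. ABCC2 was above the Bacillus controls on 0 arrays, ABCC3 on 4 and OSGIN1 on 1.

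**Figure D3:**
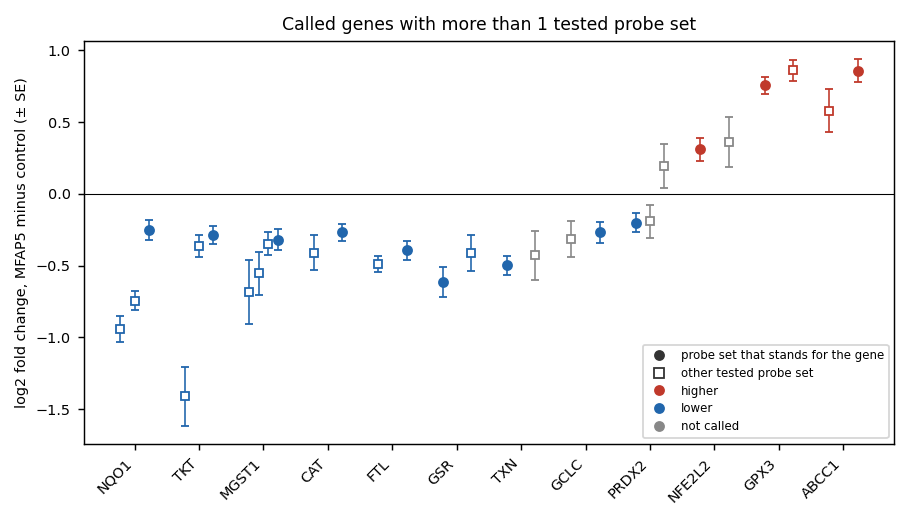
Log2 difference (MFAP5 minus control) with its SE for each tested probe set of the 12 called members that had more than 1. For 8 of these members a further probe set was called the same way, and for 0 the other way.

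Besides the probe set chosen for each gene, 12 of the 18 called members had another tested one. The 4 whose other probe sets were not called were NFE2L2, GCLC, TXN and PRDX2, and among these only 1 PRDX2 probe set had a difference of the opposite sign. For 15 of the 38 tested members the chosen probe set had a suffix (_s_at or _x_at) that marks probes able to match more than 1 transcript. FTL was among them, and its other probe set also ended in _x_at, so probe sets ending _at alone gave no value for FTL. The calls of GSR, TXNRD1, HMOX1, FTL, GPX3, SOD1, MGST2 and ABCC1, 8 of the 18, were kept in every alternative setting that gave a value. With no intensity trend the calls of NFE2L2 (adjusted p = 0.0871), GCLC (0.0687), PGD (0.0851), TALDO1 (0.115), NQO1 (0.101) and PRDX2 (0.157) were lost as well. With the hybridisation controls those of GCLC (0.18), PGD (0.163), TALDO1 (0.0982), NQO1 (0.107) and PRDX2 (0.182) were lost.

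**Figure D4:**
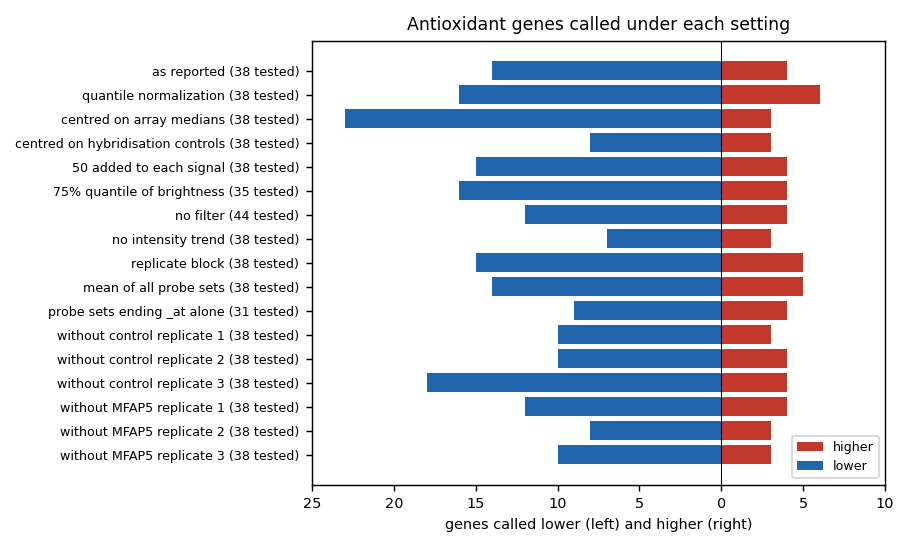
Number of members called lower and higher with MFAP5 under each setting. The count of members lower runs from 7 without an intensity trend to 23 with arrays centred on their medians, and is 14 in the reported fit. Of all genes, 9.91%, 28.1% and 15.3% were called lower in these fits, in that order.

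The rest of the pathway was read from 7 further lists that hold 118 genes, of which 92 were tested. Of these 92, 16 rose and 21 fell, beside 14.6% higher and 15.3% lower of all genes, and their median difference was -0.09. Whether the lists differ from each other was not tested. NRF2 partners, relatives and turnover factors had 4 higher and 0 lower of 14, and detoxification, heme and iron genes had 2 higher and 10 lower of 20. Both the 4 and the 16 include BACH2, which passed the brightness filter only through its MFAP5 signals.

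Among the NRF2 partners, the small MAF gene MAFF rose most. MAFF, whose product pairs with NRF2 on antioxidant response elements, read 839.9, 911 and 982 in control and 2906, 3069 and 3278 with MFAP5. It was 3.39-fold higher (adjusted p = 8.5e-07). MAFG, another small MAF gene, was 1.45-fold higher (adjusted p = 0.00517). BACH2, a repressor of the same family as the NRF2 competitor BACH1, read 39.8, 43.1 and 42.4 in control and 108, 112 and 87.1 with MFAP5. Its control signals were near the background, above the Bacillus controls on 2 of 3 arrays, and it passed the brightness filter only through its MFAP5 signals, so its call (adjusted p = 0.00403) carries no weight in the count of 4. GSK3B, a kinase that promotes NRF2 degradation apart from KEAP1, was 1.33-fold higher (adjusted p = 0.00162). With arrays centred on the hybridisation controls, MAFG (adjusted p = 0.0571) and GSK3B (adjusted p = 0.105) were not called. In the further lists, MAFG, GSK3B, CBS, GLRX3, GSTO2, GSTCD, SLC40A1, AIFM2 and SESN3 had other tested probe sets, and none of these was called.

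Cystine uptake and glutathione turnover had 4 genes higher and 1 lower of 12, beside 14.6% higher and 15.3% lower of all genes. SLC7A11, the cystine importer, read 198, 209 and 263 in control and 632, 657 and 621 with MFAP5, and its partner subunit SLC3A2 was 1.27-fold higher (adjusted p = 0.0138). CHAC1, which breaks glutathione down inside the cell, read 211, 213 and 163 in control and 576, 586 and 525 with MFAP5, 2.89-fold higher (adjusted p = 5.15e-05). All SLC7A11 and CHAC1 signals with MFAP5 lay above those in control. CBS, which starts cysteine synthesis from homocysteine, was 1.21-fold higher, and GLRX3, a glutaredoxin of iron and sulfur handling, was 1.22-fold lower (adjusted p = 0.0122). SLC3A2 lost its call without control replicate 1 (adjusted p = 0.0505) and MFAP5 replicate 2 (0.0533), and CBS without MFAP5 replicate 2 (0.0642). Both also lost it with arrays centred on their medians (0.0833 for SLC3A2, 0.14 for CBS) and on the hybridisation controls (0.259 and 0.354). CBS lost it as well with no intensity trend (0.0532), the mean of all probe sets (0.0977) and probe sets ending _at alone (0.466). GLRX3 lost its call without control replicate 1 (0.0542), MFAP5 replicate 2 (0.0519) and MFAP5 replicate 3 (0.0532), and its probe sets ending _at gave 0.01 (adjusted p = 0.974). It was also lost with the hybridisation controls (0.0576), no intensity trend (0.071) and the mean of all probe sets (0.108).

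Other glutathione transferases had 5 lower and 1 higher of 11, beside 15.3% lower and 14.6% higher of all genes. GSTZ1, which also acts in tyrosine breakdown, read 631, 645 and 558 in control and 334, 333 and 327 with MFAP5, 1.84-fold lower (adjusted p = 0.000301). GSTO2 was 1.34-fold lower (adjusted p = 0.00455), and GSTT2 was the only gene of the list called higher, at 1.34-fold (adjusted p = 0.00763). Closely related copies of GSTT2 may share its probes. The GSTT2 call was lost with arrays centred on the hybridisation controls (adjusted p = 0.149). GSTCD, at 1.42-fold lower (adjusted p = 0.0416), lost its call without control replicates 1 and 2 (adjusted p = 0.0778 and 0.151). The same was so without MFAP5 replicates 1, 2 and 3 (0.0551, 0.0833 and 0.127), with the hybridisation controls (0.0644) and with no brightness filter (0.0678). The mean of all its probe sets gave -0.20 (adjusted p = 0.489).

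The detoxification, heme and iron genes were led by CBR3, a carbonyl reductase, at 1.73-fold lower (483, 420.2 and 444 in control, 291, 258 and 233 with MFAP5, adjusted p = 0.00184). ABCC4, an exporter related to ABCC1, was 1.69-fold lower (adjusted p = 0.00132), opposite in direction to ABCC1. PIR, a nuclear iron-binding protein, was 1.64-fold lower (adjusted p = 0.000277). AIFM2, which regenerates coenzyme Q and guards against ferroptosis, was 1.63-fold lower (adjusted p = 0.000591), but its probe set ending _at gave a difference of 0.00. Against the others, SLC40A1, the iron exporter ferroportin, and SLC48A1, a heme transporter, were 1.32-fold and 1.28-fold higher (adjusted p = 0.0414 and 0.0264). SLC40A1 lost its call without control replicates 1 and 2 (adjusted p = 0.14 and 0.0558) and MFAP5 replicates 2 and 3 (0.134 and 0.132). The call was also lost with quantile normalization (0.0564), array medians (0.154), the hybridisation controls (0.212) and no brightness filter (0.0685). So it was with no intensity trend (0.09) and the mean of all probe sets (0.0853). SLC48A1 lost its call without control replicate 1 (0.0949) and MFAP5 replicates 1, 2 and 3 (0.0776, 0.057 and 0.054). It also lost the call with array medians (0.136), the hybridisation controls (0.271) and no intensity trend (0.0556).

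Other thiol and peroxide defence had 4 genes higher and 4 lower of 17, beside 14.6% higher and 15.3% lower of all genes. GPX8, a peroxidase of the endoplasmic reticulum, read 338, 334 and 357 in control and 1075, 1124 and 1220.2 with MFAP5, 3.32-fold higher (adjusted p = 1.82e-06). SOD3, the extracellular superoxide dismutase, and MSRB3, a methionine sulfoxide reductase, were 1.89-fold and 1.76-fold higher (adjusted p = 0.00133 and 0.000186). SESN3, a stress-induced sestrin, read 842, 507 and 902 in control and 247, 227 and 188 with MFAP5. That is 3.32-fold lower (adjusted p = 0.00027). With the brightest probe set chosen anew on the remaining arrays, SESN3 gave -0.47 without control replicate 1 (adjusted p = 0.194) and -0.27 without control replicate 3 (adjusted p = 0.372).

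Other NADPH sources had 1 gene higher and 1 lower of 15, beside 14.6% higher and 15.3% lower of all genes. TIGAR, which diverts glucose to the pentose phosphate pathway, was 1.28-fold higher (adjusted p = 0.0183) and IDH1, cytosolic isocitrate dehydrogenase, 1.16-fold lower (adjusted p = 0.0262). Both calls were lost without control replicate 1, control replicate 2, MFAP5 replicate 2 and MFAP5 replicate 3. In that order, adjusted p was 0.0699, 0.0692, 0.0758 and 0.0604 for TIGAR and 0.0981, 0.0734, 0.0915 and 0.107 for IDH1. Both were also lost with the hybridisation controls (0.232 for TIGAR, 0.128 for IDH1) and no intensity trend (0.0667 and 0.114). TIGAR lost its call with array medians as well (0.133), and IDH1 with no brightness filter (0.0568). NADPH oxidases, which make superoxide or hydrogen peroxide on purpose, had 3 genes bright enough to test, and none was called. NOX4 gave -0.50, with a wide interval from -1.03 to 0.04 (adjusted p = 0.161). CYBA, the membrane subunit that several of these oxidases share, gave -0.11 (interval -0.30 to 0.09, adjusted p = 0.415).

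**Figure D5:**
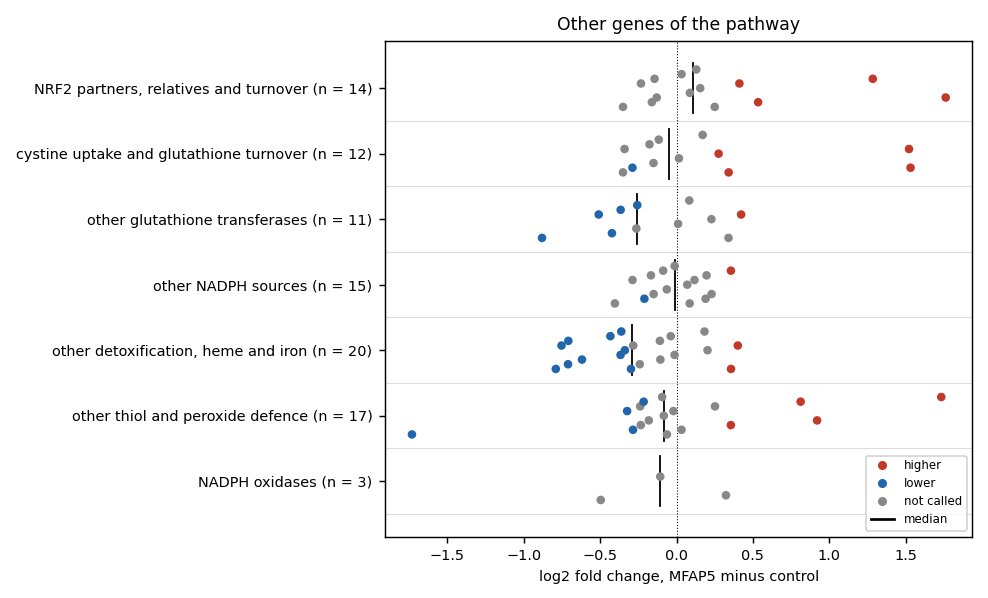
Log2 difference (MFAP5 minus control) of each tested gene in the 7 further lists, with the median of each list. MAFF at 1.76 and GPX8 at 1.73 are the highest points and SESN3 at -1.73 is the lowest.

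For the arrays as a whole, log2 signals correlated across probe sets, which are no replicates, at 0.984 to 0.988 within groups and 0.967 to 0.971 between them. Ratios of 3′ to 5′ control probe sets differed between groups by 0.03 (log2) for GAPDH and -0.01 for ACTB (exact permutation p = 0.5 and 0.6, with 0.1 the smallest possible). All 10 serous and epithelial markers were above the Bacillus controls on all 6 arrays. Their summed signal was 83920 to 94010 in control and 96280 to 103500 with MFAP5, 5 of them called higher and 2 lower, and their part in the results was not tested. None of the 4 leukocyte and 4 endothelial markers was above the controls on all arrays. The leukocyte markers summed to 46.74 to 130.5 in control and 85.56 to 139.6 with MFAP5, and the endothelial markers to 137.2 to 207.6 and 189 to 248.4. Of 6 fibroblast markers, 2 were above them on all arrays and 2 on none, with sums of 262.1 to 304.7 in control and 264.8 to 371.4 with MFAP5.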

How the data were processed

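Per the labels, 3 control and 3 MFAP5 samples were each hybridised to 1 array. The values the authors deposited are linear intensity values, the MAS5 signals of single probe sets. MAS5 is the tool named in the submitters' processing notes, and its version is not given in the sources used here. All 6 arrays had the same mean of 500.07 once 2% of values at either end were trimmed. They had thus been scaled to a common target, which hides any change that most transcripts share. Of 54675 probe sets, 62 controls were left out. The 27307 with a mean log2 signal at or above the median (a signal of 53.7) entered a linear model in limma (version 3.58.1, under R 4.3.3), moderated by eBayes allowing for a trend with intensity. The two-sided p-values were adjusted by Benjamini-Hochberg over all of these, with a threshold of 0.05. Residual degrees of freedom were 4 and prior ones 6.15, and the fit was checked on simulated data.

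Genes were named through the platform annotation, and each gene was read from the brightest (by mean log2 signal) of the probe sets that carried only its symbol. All 44 symbols were found in the RefSeq gene table. SOD2 was read from its only such probe set. The brightest of 27 Bacillus control probe sets, 26.4 to 55.9 per array, marked the background, and 27209 to 36073 probe sets per array lay above it. Values of each array are given for NFE2L2, KEAP1 and the 16 called members with the largest log2 difference, and the other members are given by fold or range. Of each further list the text names up to 4 called genes with the largest difference or, with none called, the 2 with the smallest p. Genes that went against most of their list were named where 5 or fewer did, and array values of other genes were added where a result turned on them. The members and lists were chosen with earlier results of these data known. Alternatives changed the scaling, an offset of 50, the brightness filter (75% quantile or none), the intensity trend, the replicate block and the choice of probe set, and left out each array in turn.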

Additional observations from a re-analysis of the deposited data

How the results depend on the processing

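Of 598 values of single members under alternative settings, 504 kept their direction and their side of the threshold, 48 lost a call, 29 gained a call, 17 uncalled values changed sign and 0 called values reversed. The 14 members called lower, beside 15.3% of all genes, became 23 with arrays centred on their medians (28.1% of all genes). They became 8 with the hybridisation controls (8.94%) and 7 with no intensity trend (9.91%), 6 of these shared with the 14. With probe sets ending _at alone 9 of 31 were lower (12.7% of all genes). Leaving out 1 array gave 8 to 18 lower and 3 or 4 higher, among 10.1% to 15% lower and 10.5% to 14.4% higher of all genes. For the further pathway genes, reversed values were TXNDC17 at 0.0426 with the mean of all probe sets, and with probe sets ending _at alone TXNDC17 at 0.408, GLRX3 at 0.0105 and AIFM2 at 0.00249. The cause was not tested. With the replicate number as a replicate block, 5 members were higher and 15 lower, among 16.9% higher and 18% lower of all genes. Deviations of same-numbered arrays correlated at 0.09, -0.01 and 0.17, and 3 of 6 arrays correlated best with their own number. With so few arrays these values cannot show whether same-numbered arrays were paired. The number of arrays, and for the dim members their closeness to the Bacillus controls, limits the precision.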
